A study of Mus musculus with 2 samples.

Results

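Neutrophils pack their antimicrobial proteins into granules that form in a fixed order while the cell matures, and 10 genes that mark this order were followed here in single cells of mouse liver. Primary granule genes were Elane, Mpo, Prtn3 and Ctsg, secondary granule genes were Ngp, Camp, Ltf and Lcn2, and late genes were S100a8 and S100a9. The 10 genes were picked by symbol from the 26078 genes of the deposited count matrix, and all 10 were found. Cells with at least 4 unique molecular identifiers (UMIs, single tagged transcripts) of the 10 genes together are called granule cells, and there were 8 of 3488 kept cells in library 1 and 64 of 6942 in library 2.

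The study took non-parenchymal liver cells of 1 Spta wt/wt mouse and 1 Spta sph/sph littermate, both untreated males aged 8 to 10 weeks. Spta encodes the red cell membrane protein alpha-spectrin, and the sph allele gives fragile red cells and hemolytic anemia. Cells were pulled down with beads against F4/80, a surface protein of macrophages, so neutrophils are present only as far as they passed that enrichment. The matrix is split into 2 libraries by the number that ends each barcode, and no label ties a number to a mouse. Libraries are therefore named by number, and genotype was not analysed here as a factor. With 1 mouse per genotype no test between libraries was possible, no difference has a replicate check, and all intervals given (95%, exact) cover counting error only.

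Granule genes are switched on in sequence in the bone marrow. Promyelocytes make the primary (azurophil) granule proteins, which include the serine proteases neutrophil elastase, proteinase 3 and cathepsin G and the peroxidase Mpo. Myelocytes and metamyelocytes make the secondary (specific) granule proteins, and mature neutrophils keep the proteins while they lose most of these transcripts. S100a8 and S100a9 encode the subunits of calprotectin, a calcium- and zinc-binding cytosolic protein of neutrophils and monocytes. A liver that hosts blood formation outside the marrow can hold the early steps as well as circulating neutrophils.

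In the mouse genome (GRCm38, GENCODE vM21) Prtn3 lies at chr10:79874476-79883174 and Elane next to it at chr10:79886247-79888215, both on the plus strand. Mpo lies at chr11:87793581-87804413 (plus) and Ctsg at chr14:56099881-56102574 (minus). Of the secondary genes, Camp (chr9:109847379-109849617, minus), Ngp (chr9:110419747-110423012, plus) and Ltf (chr9:111019271-111042767, plus) share a chromosome, and Lcn2 lies at chr2:32384633-32388252 (minus). S100a8 (chr3:90668978-90670035, plus) and S100a9 (chr3:90692632-90695721, minus) are neighbours on opposite strands.

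The sequence before the start site of members of each step is shown because the steps are switched on by different combinations of the same factors, PU.1 and the C/EBP family. All 10 genes matched the RefSeq promoter table (GRCm38.p6), and both strands of the 250 bases before each start were searched for GAGGAAGT (PU.1) and TTGCNNAA (C/EBP), which do not overlap each other in these windows. Sequences are printed 5′ to 3′ on the gene's strand, cut where a GENCODE exon of the gene begins, with the matches in capitals. Elane is shown from chr10:79886062-79886246 (plus), Prtn3 from chr10:79879417-79879613 (plus, inside the GENCODE gene span), Mpo from chr11:87793534-87793580 (plus), Ngp from chr9:110419558-110419746 (plus), Ltf from chr9:111019042-111019270 (plus), S100a8 from chr3:90668821-90668977 (plus) and S100a9 from chr3:90695722-90695971 (minus).
Elane: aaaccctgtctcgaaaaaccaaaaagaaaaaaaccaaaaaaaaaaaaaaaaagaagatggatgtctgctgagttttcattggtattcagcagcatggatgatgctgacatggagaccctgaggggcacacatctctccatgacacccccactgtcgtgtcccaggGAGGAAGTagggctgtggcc
Prtn3: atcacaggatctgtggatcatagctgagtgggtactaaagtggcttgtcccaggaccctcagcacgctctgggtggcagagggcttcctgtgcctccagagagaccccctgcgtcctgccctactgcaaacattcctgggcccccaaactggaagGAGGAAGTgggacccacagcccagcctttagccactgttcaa
Mpo: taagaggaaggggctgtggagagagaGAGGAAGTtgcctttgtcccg
Ngp: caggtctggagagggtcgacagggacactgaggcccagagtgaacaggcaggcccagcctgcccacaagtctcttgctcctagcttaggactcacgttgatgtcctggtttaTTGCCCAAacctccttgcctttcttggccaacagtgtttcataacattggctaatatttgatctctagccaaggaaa
Ltf: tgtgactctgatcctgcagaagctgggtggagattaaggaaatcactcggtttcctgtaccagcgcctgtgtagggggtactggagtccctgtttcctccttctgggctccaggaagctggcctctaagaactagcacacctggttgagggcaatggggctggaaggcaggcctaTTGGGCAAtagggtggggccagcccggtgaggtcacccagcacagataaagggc
S100a8: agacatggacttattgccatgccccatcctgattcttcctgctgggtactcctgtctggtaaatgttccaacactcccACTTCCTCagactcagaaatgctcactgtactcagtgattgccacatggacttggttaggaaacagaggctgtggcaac
S100a9: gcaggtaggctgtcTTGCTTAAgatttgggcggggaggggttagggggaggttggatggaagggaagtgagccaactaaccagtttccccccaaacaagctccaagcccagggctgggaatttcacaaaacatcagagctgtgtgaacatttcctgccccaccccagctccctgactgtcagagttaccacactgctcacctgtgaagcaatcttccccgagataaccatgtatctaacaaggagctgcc
The PU.1 letters occurred in 3 of the 4 primary genes (Elane, Mpo and Prtn3), in no secondary gene and, on the opposite strand, in S100a8, that is in 4 of 10 members against 2.44% of all 32851 RefSeq windows of that length. The C/EBP letters occurred in no primary gene, in 3 of the 4 secondary genes (Ngp, Ltf and Lcn2) and in S100a9, again in 4 of 10 members, against 9.56% of all windows. The letters TATAAA were searched as well and occurred in Ctsg and S100a8, 2 of 10 members, against 12.4% of all windows. Ctsg and Camp, with no PU.1 or C/EBP match, and Lcn2, with no match before its first exon, are not printed. A match is a description of these letters and was not tied to binding in these cells.

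Cells were kept with 200 or more genes detected and no more than 20% of UMIs from mitochondrial genes. They held 14117134 UMIs in library 1 (median 2848 per cell) and 45802199 in library 2 (median 4596.5). In library 1, 815 kept cells (23.4%) had a barcode sequence that also occurred in library 2 with over 5 times as many UMIs, against 44 (0.634%) in library 2, so member counts of library 1 are also given without these shared shallow barcodes. Cells were gated into lineages by marker genes, none of them a member, and the Kupffer gate (resident liver macrophages) held 67.7% of kept cells in library 1 and 59.6% in library 2. The granulocyte gate rested on 15 markers of granulocyte progenitors and neutrophils and held 3 cells in library 1 and 28 in library 2. Library 2 showed all 5 progenitor and all 10 neutrophil markers in that gate, whereas library 1 showed 0 of 5 and 5 of 10, with Mmp8, Ly6g, Cd177, Wfdc21 and Il1r2 at 0.

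Every one of the 10 genes had a higher level in library 2, given as CPM, the UMIs of a gene scaled to the same total of UMIs in each group of cells. All 10 were at least 2-fold higher there, as were 6.60% of the 13028 genes with at least 30 UMIs in either library. The median log2 ratio of library 2 over library 1 was 5.45 over the members and -0.44 over all those genes, with genes at 0 in library 1 set to a floor of 3 UMIs. Steps differed in the size of the gap, which was widest for the secondary step.

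For the primary step, Elane (neutrophil elastase) had 7 UMIs in library 1 and 851 in library 2, a log2 ratio in CPM of 5.23 (4.18 to 6.55). Mpo (myeloperoxidase) had 17 and 501 UMIs, a log2 ratio of 3.18 (2.49 to 3.97). Prtn3 (proteinase 3) had 20 and 847 UMIs, a log2 ratio of 3.71. Ctsg (cathepsin G), the least abundant member in library 2, had 2 and 103 UMIs. Without the shared shallow barcodes the library 1 counts fell to 4 for Elane, 12 for Mpo, 9 for Prtn3 and 0 for Ctsg. Summed, library 1 stood at 3.26 CPM (2.39 to 4.35) for this step and library 2 at 50.3 CPM (48.2 to 52.4), a log2 ratio of 3.95, and of 4.76 without the shared shallow barcodes.

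For the secondary step library 1 was close to empty. Ngp (neutrophilic granule protein) had 0 UMIs in library 1 and 5151 in library 2, which is at least 529-fold higher with a floor of 3 UMIs over the library. Camp (the cathelicidin precursor) had 0 and 2946 UMIs, at least 303-fold higher. Ltf (lactoferrin, which binds iron) had 1 UMI in library 1 and 1048 in library 2. Lcn2 (lipocalin 2, which binds bacterial siderophores) had 2 and 1273 UMIs. The 3 secondary UMIs of library 1 lay in 3 different cells, none of them a granule cell, and 2 UMIs remained without the shared shallow barcodes.

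For the late step, S100a8 had 238 UMIs in 129 cells of library 1 and 20343 UMIs in 452 cells of library 2, a log2 ratio of 4.72. S100a9 had 96 UMIs in 7 cells and 15953 UMIs in 171 cells, a log2 ratio of 5.68. The pair therefore did not keep 1 ratio between libraries. Late genes made up 334 of the 383 member UMIs of library 1 and 36296 of the 49016 of library 2. Without the shared shallow barcodes library 1 had 316 late UMIs, 224 of S100a8 and 92 of S100a9.

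Granule cells made up 0.229% of kept cells in library 1 (0.0991 to 0.451; 0.187% without the shared shallow barcodes) and 0.922% in library 2 (0.711 to 1.18). The threshold of 4 UMIs lay in a thinly filled range. Exactly 3 UMIs were found in 3 and 25 cells, exactly 4 in 0 and 6 cells, and exactly 5 in 1 and 5 cells of libraries 1 and 2. Of the 25 library 2 cells just outside the threshold, 19 were Kupffer-gated and held 44 late, 10 secondary and 3 primary UMIs. At the upper end, 36 cells of library 2 had at least 100 member UMIs and 21 had at least 500, against 0 and 0 in library 1.

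Few cells held nearly all of the signal. The 64 granule cells held 98.4% of the member UMIs of library 2, between 94.1% of Prtn3 and 99.2% of Ngp. In library 1 the 8 granule cells held 226 of 383 member UMIs, and most of the remainder was S100a8 in Kupffer-gated cells.

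**Figure D1:**
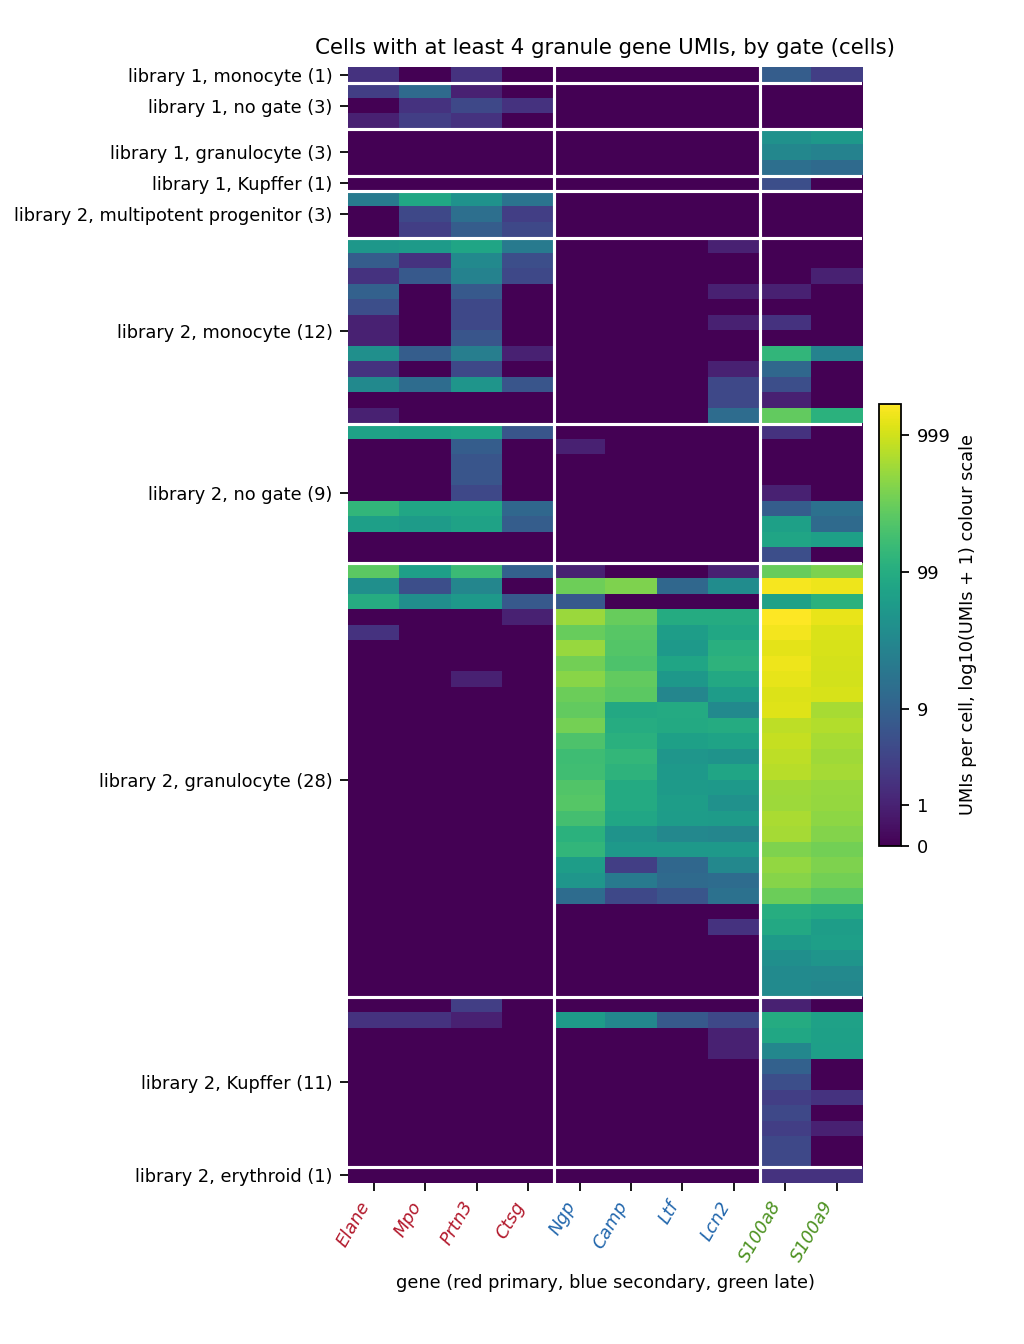
UMIs of the 10 genes (columns) in each of the 72 granule cells (rows, grouped by library and gate, number of cells in brackets), coloured on a log10(UMIs + 1) scale. The 19 library 2 granulocyte-gated cells with secondary and late genes form the bright block, late genes alone fill the 6 rows under it, and primary genes stand mostly outside the granulocyte gate.

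The granule cells of library 2 fell into 28 granulocyte-gated, 12 monocyte-gated, 11 Kupffer-gated, 3 multipotent progenitor-gated and 1 erythroid-gated cell, and 9 passed no gate. A step was counted as present in a cell with at least 3 UMIs of it. In the granulocyte gate 19 cells had the secondary and late steps, 6 had the late step alone, 2 had all 3 steps and 1 had the primary and late steps. No granulocyte-gated cell had the primary step alone, none had the secondary step alone and none had the primary with the secondary step but without the late one. Outside this gate most granule cells with primary genes held no other step. The primary step alone was found in 7 of 12 monocyte-gated cells, in all 3 multipotent progenitor-gated cells and in 5 of the 9 cells with no gate, of which 4 had Prtn3 as their only primary gene. The secondary step alone was found in 1 cell, a monocyte-gated cell whose 4 secondary UMIs were all Lcn2.

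By the step with the most UMIs, late genes led 43 of the 64 cells (67.2%, 54.3 to 78.4), primary genes 20 (31.25%, 20.2 to 44.1) and secondary genes 1 (1.56%). This order depends on how abundant each step is. When each step was first divided by its own total over the granule cells, late genes led 42.2% of the cells, primary genes 35.9% and secondary genes 21.9%. A lead is thus no measure of presence, since 21 of the 28 granulocyte-gated cells held at least 3 secondary UMIs.

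**Figure D2:**
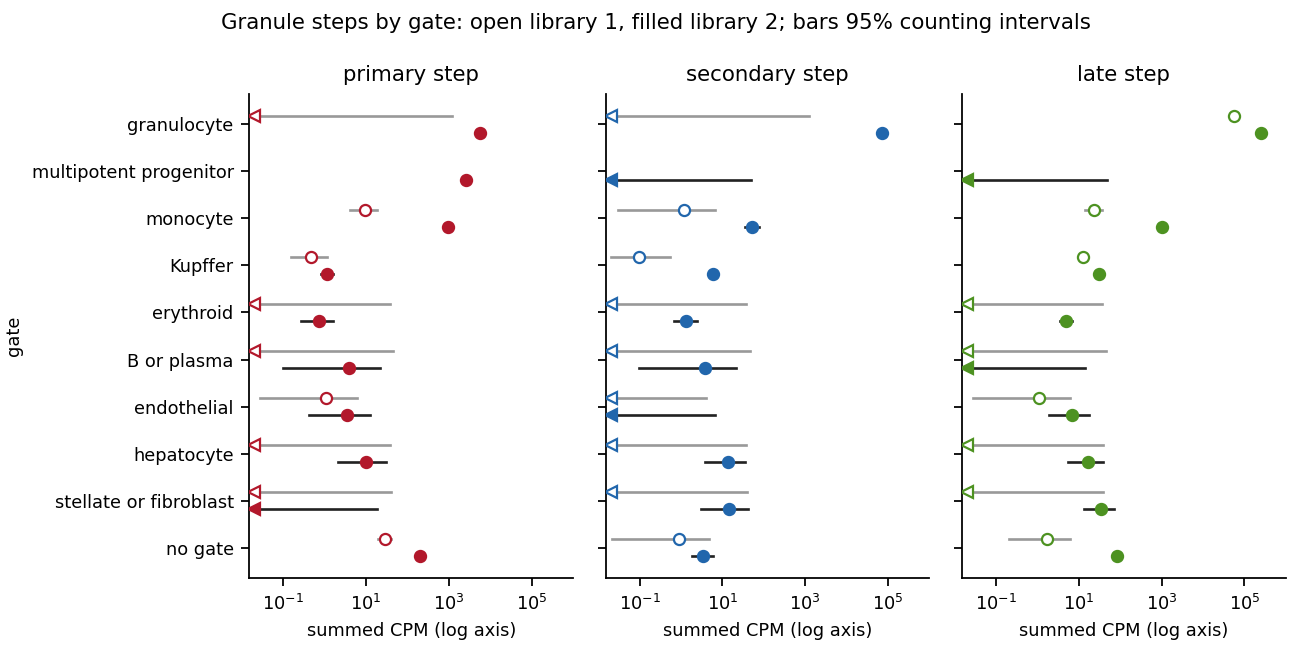
Summed CPM of each step (log axis) by gate, open points for library 1 and filled points for library 2, with 95% exact Poisson intervals and triangles for 0 UMIs. The granulocyte gate of library 2 stands highest in each panel, and the multipotent progenitor gate, with 5 cells in library 2, has primary UMIs alone.

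The primary step was spread over several gates. In library 2 it stood at 5525 CPM (5142 to 5930) in the granulocyte gate, 2637 CPM (2282 to 3031) in the multipotent progenitor gate, 936 CPM (857 to 1020) in the monocyte gate and 204 CPM (190 to 219) in cells with no gate. The counting intervals of these 4 levels did not overlap, but they do not cover the spread between cells. A single cell held 496 of the 770 granulocyte, 162 of the 198 multipotent progenitor, 205 of the 520 monocyte and 308 of the 764 no-gate UMIs. An order of these gates is therefore not established. The erythroid gate stood at 0.720 CPM (0.264 to 1.57) and the Kupffer gate at 1.16 CPM (0.811 to 1.60), with overlapping intervals. In library 1 the highest levels were 27.9 CPM (19.1 to 39.3) in cells with no gate and 9.50 CPM (4.10 to 18.7) in the monocyte gate. Without the shared shallow barcodes they were 17.9 CPM (10.6 to 28.2, 18 UMIs) and 1.19 CPM (0.0301 to 6.63, 1 UMI). The granulocyte gate of library 1 had 0 primary UMIs.

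The granulocyte gate of library 2 held 0.304% of all kept UMIs, and 33.4% (31.5 to 35.4) of primary, 97.6% (97.3 to 97.9) of secondary and 94.8% of late UMIs. For 6 of the 10 genes, all of the secondary and late steps, at least 50% of the UMIs lay in this gate, which held for 0.132% of the 12911 genes with at least 30 UMIs in library 2. With Elane and Prtn3, 8 of the 10 had at least 25% there, as did 0.248% of those genes. By gene, the share was 47.2% for Elane, 28.6% for Prtn3, 21.8% for Mpo and 16.5% for Ctsg, and between 93.5% (S100a8) and 98.0% (Ngp) for the others. The primary share rested on few cells. A single granulocyte-gated cell held 496 of the 2302 primary UMIs of library 2 (21.5%), and when a gate had to exceed the next lineage 3 times, the primary share was 3.34%, while the secondary and late shares were 92.8% and 87.4%.

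The mix of the 4 primary genes differed between gates of library 2. UMIs of this 3′ assay count transcript ends and were not divided by gene length. In the 3 multipotent progenitor-gated granule cells Mpo made up 44.9% of primary UMIs (37.9 to 52.2), Prtn3 32.8% and Elane 10.6% (6.69 to 15.8). These 3 cells carried 162, 21 and 15 primary UMIs, and the 2 smaller ones had Prtn3 at 14 and 8, Mpo at 4 and 3, Ctsg at 3 and 4 and Elane at 0. Without the richest cell the lead turned, with Prtn3 at 61.1% (43.5 to 76.9) and Mpo at 19.4% (8.19 to 36.0) of 36 UMIs. In the monocyte gate Prtn3 led with 46.0% (41.6 to 50.5) and Elane made up 29.8%. In the granulocyte gate Elane led with 52.2% (48.6 to 55.8), Prtn3 made up 31.4% and Mpo 14.2%. Ctsg went from 11.6% (7.51 to 16.9) in the multipotent progenitor gate through 7.11% in the monocyte gate to 2.21% (1.29 to 3.51) in the granulocyte gate. These mixes rest on few cells, since 1 cell held 162 of the 198 multipotent progenitor UMIs and 1 held 496 of the 770 granulocyte UMIs.

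**Figure D3:**
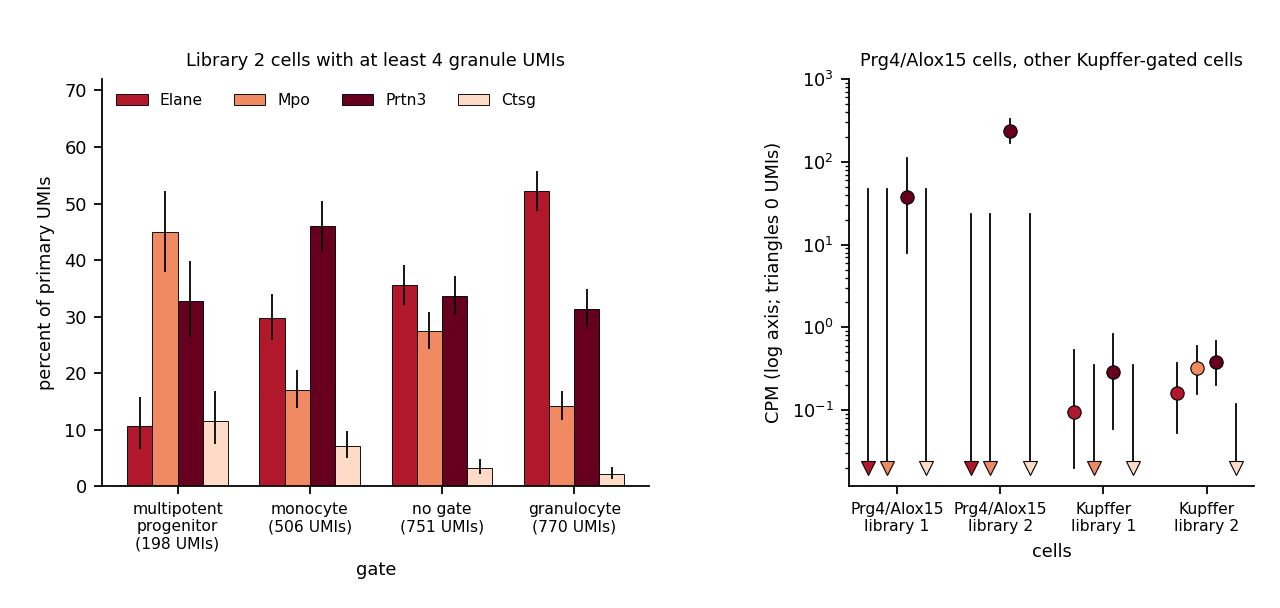
Left, the share of each primary gene among primary UMIs in library 2 granule cells by gate, with 95% exact intervals and the UMIs behind each group. Right, CPM of the same genes (log axis, triangles for 0 UMIs) in cells with at least 5 UMIs of Prg4 and Alox15 together and in the other Kupffer-gated cells, where Prtn3 in library 2 stands at 238 CPM, or 101 CPM without the 5 cells from which the pair was chosen, and the other primary genes at 0.

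Among the other genes tied to primary granules and their sorting (10 genes, 7 with at least 30 UMIs in granule cells), Plac8 and Srgn were the most abundant. Plac8 stood at 1632 CPM in the multipotent progenitor-gated granule cells, 2227 CPM in the monocyte-gated cells with primary genes and 2289 CPM in the 3 granulocyte-gated cells with primary genes, against 149 CPM in the secondary-rich cells that still had Fcnb or Ms4a3. Srgn (serglycin, the proteoglycan that holds granule proteases) stood at 3134 CPM in those 3 cells (found in 2 of them), 43 CPM in the secondary-rich cells with Fcnb or Ms4a3 and 1915 CPM in library 2 cells with late genes alone. Cd63, a granule membrane protein, stood at 1092 CPM in the 3 primary granulocyte-gated cells and between 139 and 242 CPM in all later library 2 classes.

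The monocyte-gated cells with primary genes carried the monocyte program as well. F13a1, Ccr2 and Ly6c2 were each found in 10 of 10 of these cells (896, 513 and 3479 CPM), and Irf8, a factor of the monocyte branch, in 9 of 10. In the 3 primary granulocyte-gated cells F13a1 and Ccr2 had 0 UMIs and Irf8 had 2, while Cebpe, the factor of granulocyte maturation, had 10 UMIs over all 3 cells against 1 UMI in the 10 monocyte-gated cells. Ly6c2 did not separate them as far, at 1655 CPM in the granulocyte-gated cells. The gates used Ccr2, F13a1, Ly6c2 and Cebpe, so these values describe the gates, whereas Irf8 was not a gate marker.

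Among the 10 monocyte-gated cells with primary genes, Elane ran from 1 to 50 UMIs (median 6.5), Mpo from 0 to 56 (median 1), Prtn3 from 4 to 79 (median 15) and Ctsg from 0 to 20 (median 0.5). Prtn3 was found in all 10, Elane in all 10, Mpo in 5 and Ctsg in 5. Their secondary UMIs were 8, all of them Lcn2. One of these cells also had S100a8 at 131 UMIs and S100a9 at 26.

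The granulocyte-gated cells of library 2 were then set in order by genes that mark the known sequence of maturation. The classes were those with at least 3 primary UMIs (3 cells), secondary and late cells with Fcnb or Ms4a3, which mark early granulocytes (6 cells), secondary and late cells with neither and under 10 Retnlg UMIs (9 cells), those with at least 10 Retnlg UMIs (4 cells), and cells with late genes alone (6 cells, with 3 more in library 1). These cuts were set after the values were seen, the cells were taken at 1 time and were not followed, and the levels of members and cut genes describe the classes. Depth fell along them, from medians of 9658 and 7875.5 UMIs per cell in the first pair to 4197, 3433.5 and 1403 in the others, with 949 in library 1.

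In the 3 cells with primary genes the late genes were already at high levels. The first had Elane 263, Prtn3 158, Mpo 66, Ctsg 9, S100a8 304 and S100a9 392 UMIs, with 1 UMI of Ngp, 1 of Lcn2 and none of Camp or Ltf. The second had Elane 98, Prtn3 54, Mpo 38, S100a8 69 and S100a9 115 UMIs and 7 of Ngp as its only secondary gene. The third had Elane 39, Prtn3 29 and Mpo 5 UMIs beside Camp 405, Ngp 328, Lcn2 36 and Ltf 11, with S100a8 at 1548 and S100a9 at 1387. Thus each cell held S100a8 and S100a9, whereas Camp and Ltf were seen in 1 of the 3. In the third cell Ltf made up 11 of 780 secondary UMIs. Over the 3 cells S100a8 stood at 67648 CPM and S100a9 at 66697 CPM.

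In the 6 secondary-rich cells with Fcnb or Ms4a3 the granule genes took up 42.4% of all UMIs (37.8 to 48.0 over the cells). Primary genes were almost gone, with 2 Elane, 1 Prtn3, 1 Ctsg and 0 Mpo UMIs among 46900. Ngp ran from 303 to 548 UMIs per cell (median 401.5), Camp from 209 to 298, Ltf from 29 to 96 and Lcn2 from 60 to 121. S100a8 ran from 1141 to 1693 and S100a9 from 1019 to 1316, and their 176077 and 141727 CPM were the highest of all classes. No other granulocyte-gated cell after the primary class had a primary UMI.

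In the 9 cells with neither marker and little Retnlg, members took up 35.7% of UMIs. The 4 cells with at least 10 Retnlg UMIs had 32.5%. The mix of secondary genes differed along the classes, with Camp at 30.7%, 23.3% and 14.4% of secondary UMIs in the 3 secondary-rich classes and Lcn2 at 11.25%, 13.1% and 17.6%. Ltf made up 7.44%, 14.8% and 13.6%, and Ngp stayed between 48.7% and 54.5%. In the Retnlg class 1 cell of 4 (Ngp 357, Camp 100, Ltf 91, Lcn2 96) held most of the secondary UMIs, and the other 3 had 13 to 62 Ngp and 3 to 20 Camp UMIs.

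In the 6 library 2 cells with late genes alone secondary transcripts were almost undetected. Ngp, Camp and Ltf had 0 UMIs among 8353, which allows up to 442 CPM for each, and Lcn2 had 2 UMIs in 1 cell. In the Retnlg class the same genes stood at 33477, 8839 and 8352 CPM. That class needed at least 3 secondary UMIs per cell and late-alone cells had fewer by definition, so the cut sets this gap. S100a8 ran from 34 to 102 UMIs per cell and S100a9 from 29 to 90, at 42380 and 38908 CPM, and members took up 8.15% of UMIs (4.24 to 11.1 over the cells). The 3 library 1 cells had S100a8 and S100a9 at 42 and 52, 30 and 26, and 14 and 12 UMIs, at 28059 and 29364 CPM, with members at 5.74% of UMIs. They had 0 UMIs of all 8 primary and secondary genes among 3065 UMIs, which allows up to 1204 CPM for each. Every one of the 9 late-alone cells lay below every secondary-rich cell in S100a8.

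**Figure D4:**
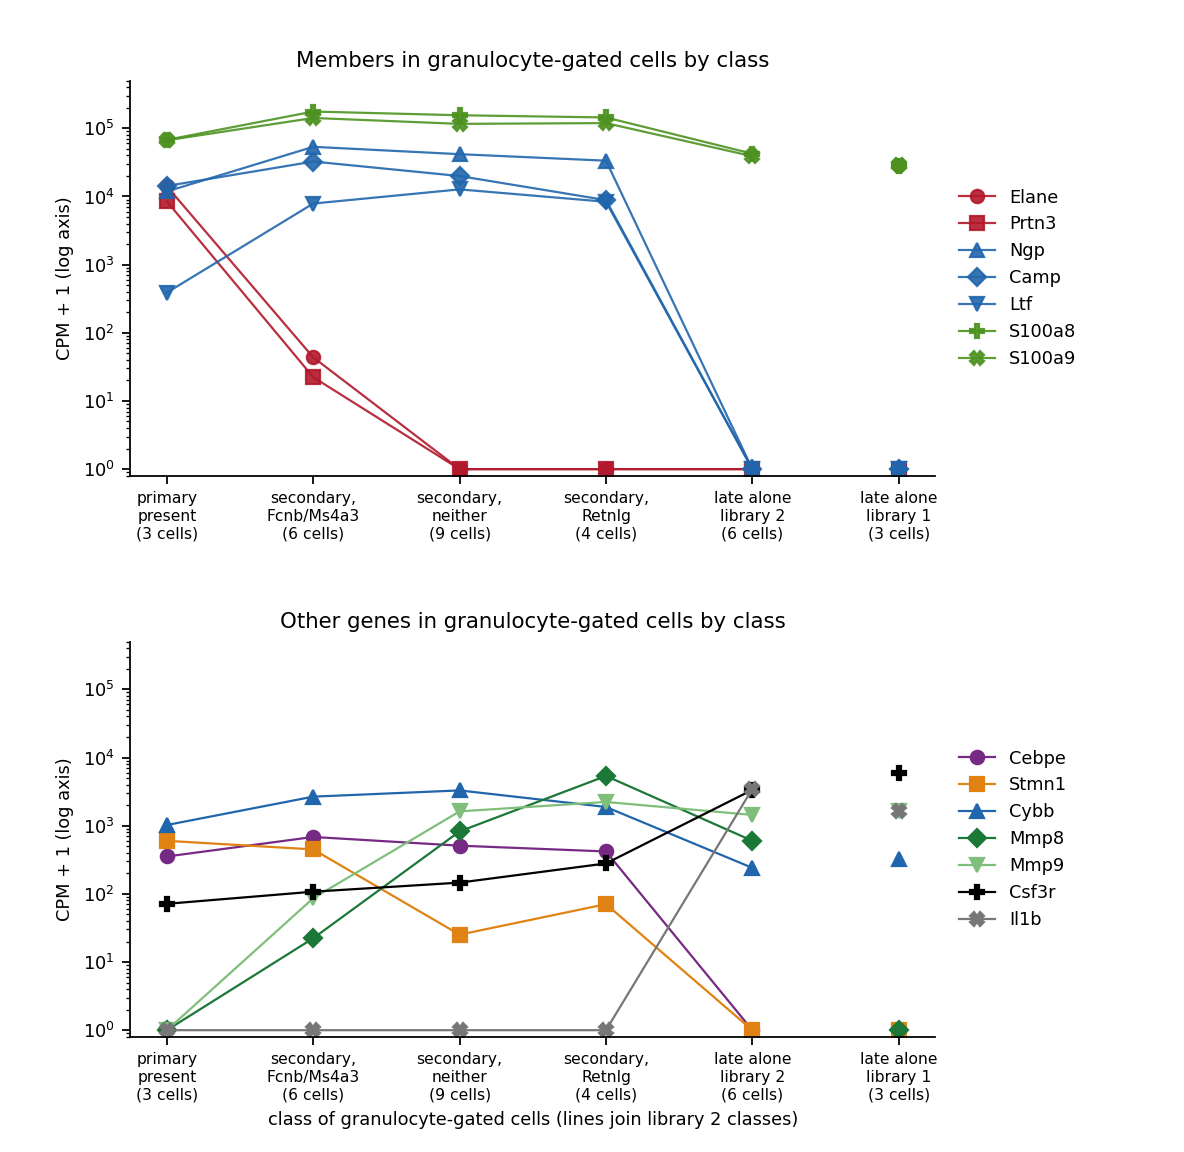
CPM + 1 (log axis) of 7 members (top) and 7 other genes (bottom) in granulocyte-gated cells by class, with lines joining the library 2 classes and single points for library 1. Elane and Prtn3 end before Ngp, Camp and Ltf do, and S100a8 and S100a9 are present throughout. Il1b and Csf3r, the latter a gate marker, stand highest in the late-alone cells.

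Genes that are not members also differed in level between the classes, without a test. Of the 11 other secondary granule genes with at least 30 UMIs, 2 were highest in the class with Fcnb or Ms4a3, 5 in the class with neither, 4 in the Retnlg class and 0 in the primary or the late-alone class of library 2. Cybb (the oxidase subunit gp91phox) went from 1021 CPM in the primary class to 2665, 3290 and 1879 CPM in the secondary-rich classes and 239 CPM in late-alone cells. Chil3 (Ym1) went from 951 to 7505, 7257 and 2366 CPM and then 0. Cebpe was found in all 3 primary cells, in 6 of 6, 9 of 9 and 3 of 4 secondary-rich cells and in 0 of 9 late-alone cells. It had 352, 682, 508 and 418 CPM (153 to 909, 6 UMIs, in the last). Its 0 UMIs in the late-alone cells of library 2 allow up to 442 CPM, so a difference from the Retnlg class was not resolved at this depth.

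Of the 5 genes with at least 30 UMIs on a list set up for gelatinase granules, 1 was highest in the class with Fcnb or Ms4a3, 1 in the class with neither and 3 in the Retnlg class, among them Retnlg itself, which set that class. Gelatinase granules form after the secondary ones, but a place on the list does not assign a product, such as that of Mmp8 or Cfp, to them. Mmp9 (gelatinase B) went from 0 and 85 CPM in the first pair of classes to 1621, 2227 and 1437 CPM, with 1631 CPM in library 1. Mmp8 (neutrophil collagenase) went from 0 and 21 CPM to 823 and 5359 CPM and back to 599 CPM. Mmp8 was found in 4 of 4 cells of the Retnlg class, 1 of 6 late-alone cells of library 2 and 0 of 3 in library 1.

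Summed, receptors and cytokines of mature neutrophils stood highest in the late-alone cells, but not every gene did. The summed level of 16 such genes went from 740 to 1194, 2588, 4385 and 14965 CPM along the library 2 classes and was 19250 CPM in library 1. Among the library 2 classes, 5 of the 8 with at least 30 UMIs were highest in late-alone cells. Among the library 2 classes Fpr2 and Cxcr4 were highest in the class with neither Fcnb nor Ms4a3, at 798 CPM (550 to 1121) and 363 CPM (203 to 599). In late-alone cells of library 2 they had 479 CPM (130 to 1226) and 359 CPM (74.1 to 1050), so neither difference was resolved. In those of library 1 Cxcr4 stood higher, at 979 CPM (202 to 2860, 3 UMIs), and Fpr2 had 0 UMIs. Ly6g was highest in the Retnlg class (905 CPM, 482 to 1547) and had 0 UMIs in late-alone cells of both libraries. Csf3r (the G-CSF receptor) had 278 CPM in the Retnlg class, 3352 CPM in the late-alone cells of library 2 (6 of 6 cells) and 5873 CPM in those of library 1 (3 of 3). Il1b (interleukin 1 beta) had 0 UMIs in all 22 earlier granulocyte-gated cells, 29 UMIs in 5 of 6 late-alone cells of library 2 and 5 UMIs in 3 of 3 of library 1. Csf3r, Ly6g, Mmp8, Mmp9 and Cebpe were among the gate markers, so their levels are partly set by the gate. This weighs most on late-alone cells, which had few marker UMIs. In library 2, Csf3r made up 5 of 7 neutrophil marker UMIs in a late-alone cell and 4 of 5 in another, and entry needed 3.

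Cell cycle genes were lowest in the later classes. The 16 genes summed to 3064 CPM in the primary class and 5586 CPM in the class with Fcnb or Ms4a3, then to 1984, 1183 and 718 CPM. Mki67 and Top2a were found in 5 and 4 of those 6 cells and in 2 and 2 of the 9 cells of the next class. In the class with neither, 1 cell held 45 of the 82 cell cycle UMIs. In late-alone cells of both libraries Mki67, Top2a and Stmn1 had 0 UMIs. That allows up to 442 CPM for each in library 2 and 1204 CPM in library 1. In the class with neither and the Retnlg class, Mki67 stood at 48 and 0 CPM, Top2a at 145 and 70 and Stmn1 at 24 and 70. A difference of the late-alone cells from these classes was thus not resolved for the 3 genes.

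Markers of other lineages and globin were also counted in the granulocyte gate. Kupffer markers were counted at 4 to 46 UMIs per cell in library 2 (median 11.5, 8 of 9 markers found, against a median of 14 in cells of other lineages there) and at 0 to 4 in library 1 (3 of 9). The summed globin level was 20079 CPM in the class with neither Fcnb nor Ms4a3, between 2289 and 10296 CPM in the other library 2 classes and 0 in library 1. In that class with neither, 1 cell held 202 of the 355 UMIs of the globin gene Hbb-bs. Of the 6 multipotent progenitor markers 1 was found, in 4 of 28 cells of library 2. The origin of these UMIs and their part in the values above were not tested.

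Of the 9 granule cells of library 2 with no gate, 3 held 204 to 308 primary UMIs each, with Elane at 66 to 132, Mpo at 58 to 81 and Prtn3 at 72 to 84. They carried 14 to 21 granulocyte progenitor, 4 to 17 neutrophil and 10 to 30 monocyte marker UMIs. The granulocyte gate adds progenitor and neutrophil markers, and in each cell this sum was above the monocyte markers but under 2 times them. One of them had S100a8 at 68 and S100a9 at 12.

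The primary cells of library 1 had deeper partners in library 2. Of its 8 granule cells, 3 were shared shallow barcodes. One had 611 UMIs with 4 primary and 11 late ones, and the same sequence in library 2 had 13644 UMIs with 71 and 157. One had 806 UMIs with 8 primary ones, against 20248 UMIs with 162. One had 745 UMIs with 6 primary ones, against 17479 UMIs with 205. Without these 3, library 1 held 1 cell with primary genes, with Mpo 12, Elane 3 and Prtn3 1 among 1503 UMIs and no gate. Its markers were 4 multipotent progenitor and 3 granulocyte progenitor UMIs.

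In the Kupffer gate of library 1 S100a8 was found without S100a9. There, S100a8 had 133 UMIs in 115 of 2362 cells and S100a9 had 2 UMIs in 2 cells, and no cell had both. S100a8 thus made up 98.5% (94.8 to 99.8) of the pair, and 99.2% without the shared shallow barcodes (127 and 1 UMIs). In the 3 granulocyte-gated cells of the same library it made up 48.9% (41.3 to 56.5). With up to 40% mitochondrial UMIs allowed, the Kupffer share in library 1 was 88.6%.

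In library 2 the Kupffer gate held 648 S100a8 and 291 S100a9 UMIs. Most of the S100a9 lay in 11 Kupffer-gated granule cells, among them 3 with S100a8 and S100a9 at 84 and 68, 30 and 66, and 95 and 69 UMIs, the last with 100 secondary UMIs as well. Droplets with several cells were not removed. Without the granule cells, 406 S100a8 and 85 S100a9 UMIs remained, and S100a8 made up 82.7% (79.0 to 85.9), against 55.3% (54.8 to 55.8) in the granulocyte gate and 54.1% (36.9 to 70.5) in erythroid-gated cells under 4 member UMIs. In those Kupffer-gated cells S100a8 stood at 13.1 CPM (11.9 to 14.5) in library 2, and library 1 at 12.2 CPM (10.1 to 14.5) overlapped it. For S100a9 the levels were 2.75 CPM (2.19 to 3.39) in library 2 and at most 0.686 CPM, the upper bound for 2 UMIs, in library 1.

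Other gates were used as a reference, and the origin of the S100a8 and S100a9 UMIs in any of these gates was not tested. Globin made up 30.7% of the UMIs of erythroid-gated and 6.60% of Kupffer-gated cells of library 2. It lowers the CPM of all other genes more in the erythroid gate. In erythroid-gated cells of library 2 under 4 member UMIs, S100a8 stood at 2.40 CPM (1.47 to 3.71) and S100a9 at 2.04 CPM (1.19 to 3.27). The interval for S100a9 in the remaining Kupffer-gated cells overlapped that level, and the interval for S100a8 lay above it. Over all library 2 gates other than granulocyte, monocyte and Kupffer, under 4 member UMIs, S100a8 stood at 3.13 CPM (2.14 to 4.42) and S100a9 at 2.64 CPM (1.74 to 3.84). Single small gates did not separate from the Kupffer gate, since S100a8 stood at 19.3 CPM (5.26 to 49.4, 4 UMIs) in the stellate or fibroblast gate, 10.2 CPM (2.10 to 29.7, 3 UMIs) in the hepatocyte gate and 13.1 CPM (0.331 to 72.8, 1 UMI) in the T or natural killer gate. Ngp, a secondary gene, had 0.318 UMIs per S100a9 UMI in those Kupffer-gated cells, 0.353 in those erythroid-gated cells and 0.328 in the granulocyte gate. As a share of Ngp and S100a9 UMIs this was 24.1% (16.5 to 33.1), 26.1% (10.2 to 48.4, 6 Ngp UMIs) and 24.7% (24.1 to 25.3). Library 2 cells under 4 member UMIs had 0.667 in the monocyte gate (2 Ngp UMIs) and 0.278 with no gate (5 Ngp UMIs). In library 1 the gates other than granulocyte, monocyte and Kupffer had 1 S100a8 UMI in 563 cells (0.630 CPM, 0.0159 to 3.51). S100a8 was found in 4.87% of Kupffer-gated cells of library 1 (median depth 3369 UMIs) and 8.32% of library 2 (6431 UMIs), against 0.355% of endothelial-gated cells of library 1 (2929 UMIs) and 2.42% of erythroid-gated cells of library 2 (6862 UMIs). After each cell was thinned at random to 1000 UMIs, which left out 677 and 467 shallower Kupffer-gated cells, the Kupffer shares were 1.31% and 1.47%, and the erythroid share of library 2 was 0.477% (4 of 838 cells). In smaller gates of library 2 the thinned share was 2.22% for hepatocyte (2 of 90 cells), 1.43% for stellate or fibroblast (1 of 70) and 6.45% for conventional dendritic cells (2 of 31), close to or above the Kupffer share, so the thinned shares give no order between the Kupffer gate and these.

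**Figure D5:**
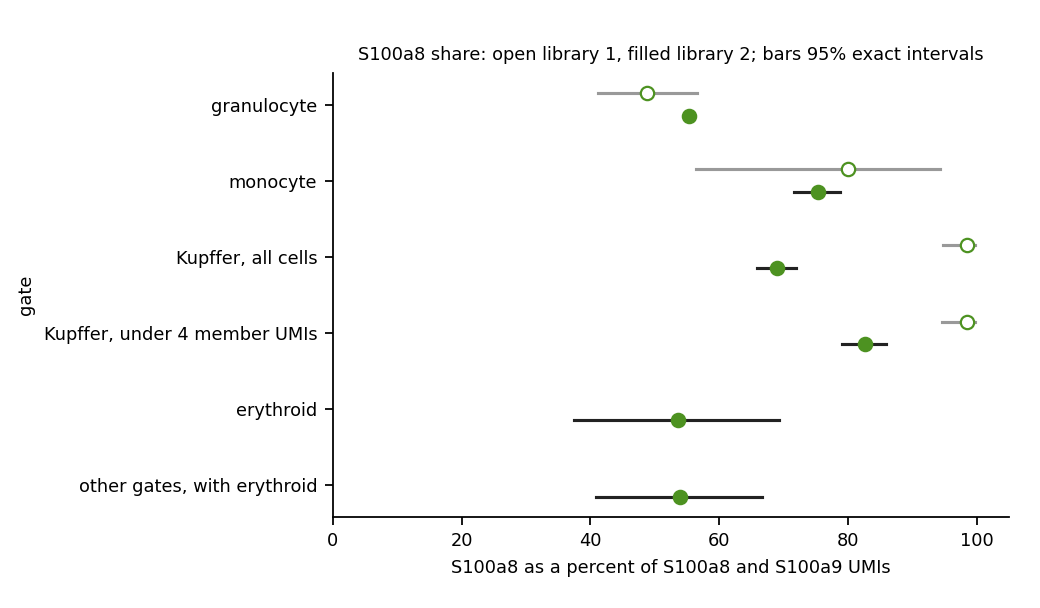
S100a8 as a percent of S100a8 and S100a9 UMIs by gate, open points for library 1 and filled points for library 2, with 95% exact intervals and groups under 3 UMIs left out. The Kupffer gate stands at 98.5% in library 1 and 82.7% in library 2 cells under 4 member UMIs, whereas the granulocyte gate stands at 55.3% in library 2.

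The monocyte gate held both genes unevenly. In library 2 it had 441 S100a8 and 144 S100a9 UMIs (75.4%, 71.7 to 78.8), nearly all in 2 cells, with 284 and 114 UMIs in one and 131 and 26 in the other. The first had 13 Lcn2 UMIs, 0 of Ngp, Camp and Ltf, and 127 cell cycle UMIs among 10251. In library 1 the gate had 16 S100a8 and 4 S100a9 UMIs, of which 8 and 1 remained without the shared shallow barcodes.

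Prtn3 was the one primary gene found without the others in a group of cells. In 5 library 2 granule cells Prtn3 had 3 to 8 UMIs and Elane, Mpo and Ctsg had 0, and 1 of these was Kupffer-gated and 4 had no gate. All 5 had at least 5 UMIs each of Prg4 (lubricin) and Alox15 (a lipoxygenase), a pair chosen after these cells were seen. Cells were then taken with at least 5 UMIs of the pair together. Over all 17 such cells of library 2, Prtn3 had 38 UMIs in 12 cells (238 CPM, 169 to 327), and Elane, Mpo and Ctsg had 0, which allows up to 23.1 CPM for each. In library 1, 7 such cells held 3 Prtn3 UMIs in 2 cells (38.1 CPM, 7.85 to 111). The other Kupffer-gated cells stood at 0.387 CPM in library 2 (upper bound 0.676) and 0.286 CPM in library 1. The pair was chosen from the 5 granule cells, and without them Prtn3 had 11 UMIs in 7 of 12 cells, at 101 CPM (50.4 to 181).

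Outside the members, the genes whose level ran most like each step were ranked by Pearson's r of log2(CPM + 1) over 15 groups of cells, namely the 3 sets of step-led granule cells and the gates with at least 50 cells in each library. The groups differ in depth and number of cells, and granule cells also belong to their gates, so r is a description. Genes were compared only if they had at least 30 UMIs in the cells led by the step. Those cells were themselves picked by the step's UMIs, so r is partly set by this choice for every gene listed. Of the genes listed below, Ms4a3, Fcnb, Cebpe, Mmp8, Mmp9, Ly6g and Cd177 were granulocyte gate markers and F13a1 a monocyte one. Gating kept cells rich in them out of the other gates, so their r is partly set by the gates. For the primary step the closest were Ms4a3 (r = 0.94), Nkg7 (0.90), Pglyrp1 (0.84), Serpinb1a (0.80) and Sec61b (0.79), out of 899 genes. With the steps scaled to their totals, 27 cells were led by the primary step and the list was Ms4a3 (0.91), Fcnb (0.89), Nkg7 (0.87), F13a1 (0.86) and Slpi (0.83), so 2 of the 5 were shared. For the late step they were Chil3 (0.87), Fcnb (0.86), Mcemp1 (0.84), Ms4a3 (0.82) and Mmp8 (0.81), out of 1207. Scaled, it was Chil3 (0.93), Mmp8 (0.92), Mcemp1 (0.90), Cd177 (0.87) and Anxa1 (0.86) over 31 cells, with 3 of the 5 shared. For the secondary step 1 cell was led by it and 5 genes had at least 30 UMIs there, which gives no useful order (the highest was Lyz2 at 0.64). With the steps scaled to their totals, 14 cells were led by the secondary step and the closest of 160 genes were Ly6g (0.91), Mmp9 (0.88), Cebpe (0.88), Cd177 (0.86) and Chil3 (0.86).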

How the data were processed

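The authors deposited 1 matrix of UMI counts per gene and barcode for the 2 libraries, not normalized. Per the submitters' processing notes it was made with Cell Ranger 3.0.1 and R 3.6.1 on GRCm38.p5, and the annotation release is not given in the sources used here. From these counts, levels were computed as CPM of all kept UMIs in a group of cells, with exact Poisson, Clopper-Pearson and conditional ratio intervals (95%, numpy 2.4.6, scipy 1.17.1, pandas 2.3.3), after a check on simulated data. Genes at 0 had a floor of 3 UMIs in ratios between libraries, and the CPM allowed by 0 UMIs is the exact upper bound.

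A cell entered a gate when its marker UMIs, less the median in cells of other lineages of its library, reached 3 from at least 2 markers and 2 times the next lineage. Doublets were not removed. The members and lists were chosen with earlier results of these data known. The median subtraction, the maturation classes, the Prg4 and Alox15 pair and some alternatives were chosen after seeing the data. Named genes were the members, list genes with at least 30 UMIs in granule cells, and the 5 genes most like each step. The alternatives varied the cell filters, the granule-cell and gating thresholds, shared barcodes and the scaling.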

Additional observations from a re-analysis of the deposited data

Results flagged for a closer look

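Barcodes removed by the cell filters also held granule genes, and the comparisons above do not use them. In library 1, 4 of 5419 removed barcodes had at least 4 member UMIs (0.0738%, against 0.0554% for a floor of 3 barcodes), and all 4 were led by late genes. In library 2 there were 16 of 2784 (0.575%, against 0.108%), led by late genes in 12, by primary genes in 2 and by secondary genes in 2. The 16 held 37 primary, 452 secondary and 1686 late UMIs, and their mitochondrial share ran from 20.5% to 49.3%.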

How the results depend on the processing

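Of 73 values recomputed under an alternative, 44 moved by less than their interval and 29 moved further. The log2 ratios among them kept their sign, whereas the shares and CPM levels cannot change sign. The order of Mpo and Prtn3 in the multipotent progenitor gate turned without its richest cell, as given above. The share of granule cells in library 2 was 0.663% with at least 10 member UMIs and 0.576% when members had to reach 0.5% of the cell's UMIs. Under the latter, primary, secondary and late genes led 17.5%, 0% and 82.5%, and with 10 UMIs secondary genes led 0%. With steps scaled to their totals, secondary genes led 21.9% and late genes 42.2%. The log2 ratio of the primary step was 4.42 with at least 500 genes per cell, 4.76 without shared shallow barcodes and 0.61 within granule cells alone. That of the late step was 5.30 with up to 40% mitochondrial UMIs, 5.23 without globin and mitochondrial genes and 2.12 within granule cells alone, where the secondary ratio has no value because library 1 had 0 such UMIs. The granulocyte gate's primary share was 42.9% with at least 500 genes and 3.34% with a gating margin of 3 times. Its secondary and late shares were 94.4% and 91.8% with up to 40% mitochondrial UMIs, 92.8% and 87.4% with that margin, and 88.8% and 85.0% with marker UMIs as counted, the last chosen after seeing the data. No paired analysis was possible because each genotype had 1 mouse. Library 1, with 3 granulocyte-gated cells of 935 to 1181 UMIs, limits what can be read of the early steps there.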
